A study of Mus musculus with 12 samples.

Results

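Mgl2 encodes a galactose-type C-type lectin, and the data described here are its exon bins in mixed RNA sequencing reads of D1, a mouse cell line. An exon bin is a stretch of exon cut so that no bin overlaps another, and the tables hold 1 value per bin and replicate. The bins were chosen as all rows that carry the gene name Mgl2 or the same joint transcript name, which is built from the UCSC transcripts uc011xxo.1, uc007jtu.1 and uc007jtv.2. After repeated rows were dropped, Mgl2 had 13 bins, named E001 to E013 from 5′ to 3′, of 925 bins in 58 gene models.

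The samples were mixed on a computer from sequenced libraries. A background of TruSeq reads, from poly(A)-selected and randomly primed cDNA, started from total RNA in an amount of 100 ng or 1000 ng. Reads of listed transcripts were added to it, taken either from a TruSeq library of 100 ng RNA or from a NuGENv2 library of 2 ng RNA, out of 20M, 40M or 80M source reads (M, 1e6). That gives 12 samples of 5 replicates each. The added Mgl2 reads belong to uc007jtu.1 and uc007jtv.2, which the labels list for the 100 ng background at each kit and depth. The 1000 ng background has no Mgl2 transcript on its list of kit reads. Synthetic reads with even coverage were mixed into all samples for other transcripts, and the joint name of Mgl2 holds none of those. All samples share the cell line, and nothing in the labels says that replicates came from separate cultures, so p-values measure only the spread between these replicates. The kit and the amount of RNA behind the added reads change together and cannot be told apart.

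C-type lectins bind sugars through a calcium-dependent recognition domain. MGL2, also called CD301b, is a membrane protein of dendritic cells and macrophages with its recognition domain outside the cell, and it binds galactose and N-acetylgalactosamine on glycoproteins. In transcripts of this kind, short exon parts can be gained or lost when splicing chooses between neighbouring acceptor sites or leaves an intron in place. Of 13 dendritic cell markers, the tables held Mgl2 and Sirpa, and they held none of the 7 macrophage, 3 T cell, 3 B cell and 3 fibroblast markers looked for, so the cell type named for D1 could not be checked further.

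Mgl2 lies on the + strand of chromosome 11 from 69943831 to 69951052 in the NCBIM37 mouse genome, the build called mm9 in the submitters' processing notes, with 6 annotated GENCODE transcripts. Bin lengths were not given and were recovered from the values. For 12 of the 13 bins the recovered length plus 1 base matched the annotated exon parts of the transcript Mgl2-201, and E001 was not placed. E002, from 69947621 to 69947765, holds the start of the coding sequence with 36 bases of 5′ UTR and 109 coding bases. E004 to E010 are coding. E012, from 69950423 to 69951044, holds the last 190 coding bases before the stop codon. Its other 432 bases are the stop codon and 3′ UTR. E013, from 69951045 to 69951050, is the 6 bases near the annotated 3′ end. The hexamer AATAAA, the usual signal for poly(A) addition, ends 16 bases before the first base of E013, and another copy, from 69951047 to 69951052, overlaps it.

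Of the 12 placed bins, E003 and E011 are exonic in some annotated transcripts and intronic in others, and their sequences are shown for that reason. E003 is 3 bases long, and Mgl2-201 is the only annotated transcript that includes it. It is the second cag of a repeated cag, so that the upstream acceptor keeps it and the downstream acceptor removes it. E011 is an intron of Mgl2-001 and part of a longer exon in Mgl2-002 and Mgl2-201. In NCBIM37, + strand, with E003 in capitals in the first line and the first and last pair of intron bases in capitals in the second, they read:
E003 with flanks, chr11:69948533-69948562: cacccccttctctttcagCAGttccttccc
E011, chr11:69950279-69950422: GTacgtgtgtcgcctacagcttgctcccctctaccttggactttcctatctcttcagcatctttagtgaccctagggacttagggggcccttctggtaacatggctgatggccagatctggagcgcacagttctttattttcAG
E011 starts with GT and ends with AG, has 144 bases or 48 codons, is 51.4% G or C, and holds 0 stop codons in the frame carried over from E010. The exon structures of the 3 UCSC transcripts were not used here, so E003 and E011 were not assigned to a listed transcript.

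Reads in bins ranged from 237258 to 492142 per 100 ng replicate and from 347941 to 593002 per 1000 ng replicate, leaving out the 100 ng sample with 20M TruSeq reads. That sample stood apart with 1101798 to 1281559, and results that rest on it are named. The deposited values were brought to FPKM equivalents (reads per kilobase of bin and per 1e6 library reads) with size factors computed within each table, so levels are compared within a table only. Differences are log2 fold changes of 100 ng over 1000 ng on log2(FPKM equivalent + 1), tested with limma over all bins or all gene models of a table with Benjamini-Hochberg adjustment.

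Mgl2 was higher in the 100 ng than in the 1000 ng background in all 6 tables. It had the highest level of the 58 gene models in each 100 ng sample and the second highest in each 1000 ng sample. A read appears to count in each bin it overlaps, so this rank of summed bins is not a rank of transcripts. E004 to E009, with 52.2% of the Mgl2 reads of the 1000 ng background, are also nearly identical to Clec10a, the gene of a related lectin. By design, Mgl2 reads were added to the 100 ng samples only. A higher level there, and its growth from 40M to 80M, were therefore built into the mixing. The p-values below do not test an effect of the amount of background RNA. That amount and the added reads cannot be told apart. At 80M TruSeq reads it measured 2138, 2249, 1454, 1529 and 2225 FPKM equivalents in the 100 ng replicates, against 558, 625, 505, 555 and 503 FPKM equivalents in the 1000 ng replicates. At 80M NuGENv2 reads it measured 948, 959, 828, 805 and 959 FPKM equivalents in the 100 ng replicates, against 539, 589, 488, 535 and 491 FPKM equivalents in the 1000 ng replicates. The groups did not overlap in either table, and 100 ng replicates 3 and 4 were the lowest of their group in both.

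The log2 fold change of the Mgl2 level with TruSeq reads was 0.37 at 20M, in the sample that stood apart (SE 0.042, limma adjusted p = 7.69e-05), 1.17 at 40M (SE 0.11, limma adjusted p = 3.19e-05) and 1.78 at 80M (SE 0.15, limma adjusted p = 8.11e-06). With NuGENv2 reads it was 0.25 at 20M (SE 0.052, limma adjusted p = 0.0200), 0.45 at 40M (SE 0.057, limma adjusted p = 6.45e-04) and 0.77 at 80M (SE 0.078, limma adjusted p = 7.16e-05). The share of gene models called higher in 100 ng was 43.1% with 20M TruSeq reads (the sample that stood apart), 25.9% with 40M and 25.9% with 80M, and 3.45%, 13.8% and 19.0% with 20M, 40M and 80M NuGENv2 reads. A two-sided exact permutation test on Mgl2 alone gave p = 0.00794 in each table, the smallest that 5 against 5 replicates allow. The smallest change, with 20M NuGENv2 reads, lost its call when any of 5 single replicates was left out (1000 ng replicate 3 or 100 ng replicate 1, 2, 3 or 5), with limma adjusted p between 0.0522 and 0.0563. With size factors from total reads the TruSeq values were 1.43, 1.11 and 1.66 at 20M, 40M and 80M, and on the values as deposited without the fifth 100 ng column 2.80, 0.85 and 1.44, where that at 40M did not pass (limma adjusted p = 0.0923), so an order of 20M among the TruSeq depths depends on the scaling. When size factors came from total reads, the NuGENv2 values of 0.22, 0.43 and 0.75 at 20M, 40M and 80M did not pass (limma adjusted p = 0.979, 0.747 and 0.103), and on the values as deposited they were -0.039, 0.15 and 0.45, none past the threshold.

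**Figure D1:**
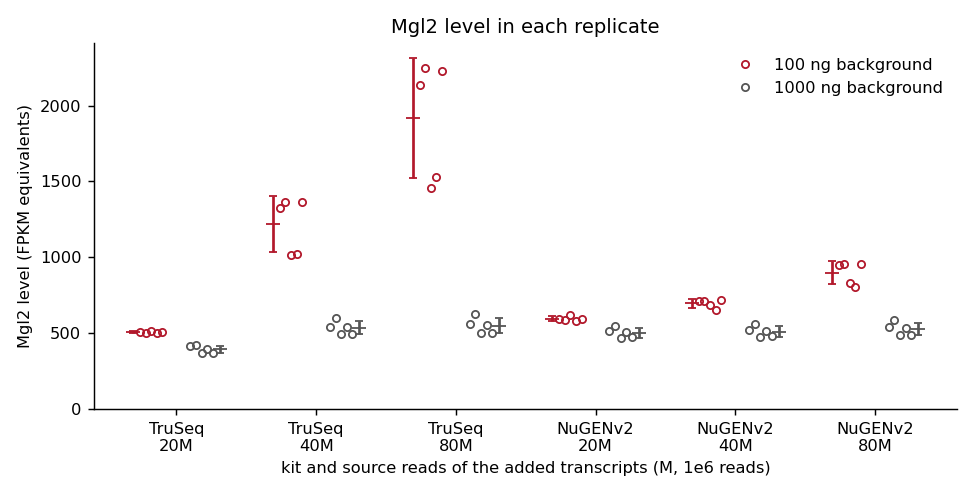
Mgl2 level in FPKM equivalents (linear axis from 0) in each replicate of the 100 ng background (red) and the 1000 ng background (grey), by kit and source reads, with bars for the mean and SD of 5 replicates. With 80M TruSeq reads the 100 ng replicates lie between 1454 and 2249, above 503 to 625 in the 1000 ng replicates, and levels are comparable within a pair of columns only.

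The reads behind these levels were counted directly, before scaling. The 1000 ng replicates held 23672, 44857, 19516, 23977 and 17754 Mgl2 reads, and these numbers were the same in all 6 tables, so that no Mgl2 read differed there between kits or depths. The 100 ng replicates held 62382, 60447, 82204, 74721 and 60768 Mgl2 reads with 80M TruSeq reads and 27649, 25714, 47471, 39988 and 26035 with 80M NuGENv2 reads. In every bin the 5 replicates differed between any pair of tables by exactly the same number of reads, so that they hold 1 set of added reads on 5 backgrounds. P-values of 100 ng against 1000 ng thus do not cover the uncertainty of the added reads. With TruSeq reads the 100 ng replicates held fewer Mgl2 reads at 40M than at 20M, the sample that stood apart, where the counts were 174187, 172252, 194009, 186526 and 172573. A read appears to have been counted in each bin it overlaps, since the 3 bases of E003 hold at least 331 reads in each 1000 ng replicate, and sums over bins are therefore not distinct reads.

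The increase was not even along the gene. Among 13 bins 9 rose with 80M TruSeq reads (E001 to E004 and E009 to E013) and none fell, where 13.4% of the 922 bins tested were called higher. With 80M NuGENv2 reads 7 of 13 rose (E002 and E008 to E013) and none fell, where 7.16% of all bins were called higher. With 40M reads 7 bins rose with TruSeq reads, against 10.5% of all bins, and 3 rose with NuGENv2 reads (E011, E012 and E013), against 2.82%. With 20M reads all 13 rose with TruSeq reads in the sample that stood apart, against 29.7%, and E012 and E013 rose with NuGENv2 reads, against 0.759%. No Mgl2 bin fell in any table, where 32.6%, 6.40% and 7.92% of all bins were called lower with 20M, 40M and 80M TruSeq reads and 1.19%, 2.17% and 5.10% with 20M, 40M and 80M NuGENv2 reads.

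The largest changes with 80M TruSeq reads were at the 3′ end, in E013, E012 and E011. E013, the 6 bases near the annotated 3′ end, measured 1205, 1270, 729, 802 and 1238 FPKM equivalents in the 100 ng replicates, against 135, 108, 70.0, 125 and 86.2 FPKM equivalents in the 1000 ng replicates. E012, the end of the coding sequence and the 3′ UTR, measured 3046, 3277, 1791, 1972 and 3226 FPKM equivalents in the 100 ng replicates, against 300.5, 344, 273, 299 and 273 FPKM equivalents in the 1000 ng replicates. In both bins every 100 ng replicate was above every 1000 ng replicate. E011, the part that is intronic in Mgl2-001, measured 3108, 3318, 1863, 2051 and 3255 FPKM equivalents in the 100 ng replicates, against 409, 482, 382, 424 and 377 FPKM equivalents in the 1000 ng replicates. The log2 fold changes were 3.31 for E013 (SE 0.23), 3.11 for E012 (SE 0.19) and 2.67 for E011 (SE 0.19), each with limma adjusted p = 1.22e-05. E010, the coding bin just 5′ of E011, followed with 1.90 (SE 0.16, limma adjusted p = 2.74e-05).

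The smallest changes were in coding bins in the middle of the gene, E005, E006 and E007. E006 averaged 1046 ± 70.2 FPKM equivalents in 100 ng and 1113 ± 94.7 in 1000 ng with 80M TruSeq reads (SD, n = 5 each). E005 averaged 983 ± 52.9 FPKM equivalents in 100 ng and 966 ± 82.6 in 1000 ng, and E007 averaged 1010 ± 72.5 in 100 ng and 992 ± 87.3 in 1000 ng. In all 3 bins the groups overlapped and the log2 fold changes, -0.088 for E006, 0.028 for E005 and 0.027 for E007, were smaller than their standard errors (0.094, 0.091 and 0.095), with limma adjusted p between 0.617 and 0.889. Between these and the 3′ end, E009 changed by 0.40 (SE 0.082, limma adjusted p = 0.00518) and E008 by 0.26 (SE 0.094, limma adjusted p = 0.0913), which did not pass, although without 1000 ng replicate 2 it did (0.31, limma adjusted p = 0.0405). At the 5′ end, E001 changed by 1.73 (SE 0.17) and E002 by 1.53 (SE 0.15), so that the increase was large at both ends and small between them. E003 and E004 lay between, at 0.84 (SE 0.11, limma adjusted p = 2.92e-04) and 0.36 (SE 0.090, limma adjusted p = 0.0160). With size factors from total reads E003, E004 and E009 no longer passed (0.72, 0.24 and 0.28; limma adjusted p = 0.0968, 0.700 and 0.658), and E005 and E007 were at -0.096 and -0.097.

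With NuGENv2 reads the increase was mostly at the 3′ end, and it was largest in E013. At 80M this bin measured 5982, 6465, 3149, 3595 and 6375 FPKM equivalents in the 100 ng replicates, against 131, 102, 67.6, 121 and 84.2 FPKM equivalents in the 1000 ng replicates. Its log2 fold change was 5.62 (SE 0.26, limma adjusted p = 1.86e-06), against 1.78 for E012 (SE 0.14, limma adjusted p = 7.78e-05). E009, E010 and E011 changed by 0.53, 0.55 and 0.59, and E002, at 0.40 (SE 0.092, limma adjusted p = 0.0221), was the only bin 5′ of E008 to pass. E002 lost its call without 1000 ng replicate 3 or 4 or 100 ng replicate 1 or 2, and E008, at 0.36 (SE 0.084, limma adjusted p = 0.0233), without 1000 ng replicate 3 or 4 (limma adjusted p between 0.0517 and 0.0662). At 20M NuGENv2 reads E013 already had a log2 fold change of 4.39 (SE 0.26), while E012 had 0.79 (SE 0.087). With size factors from total reads, E012 and E013 were the 2 bins that passed at 80M NuGENv2 reads, and on the values as deposited E013 was the 1 that did.

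**Figure D2:**
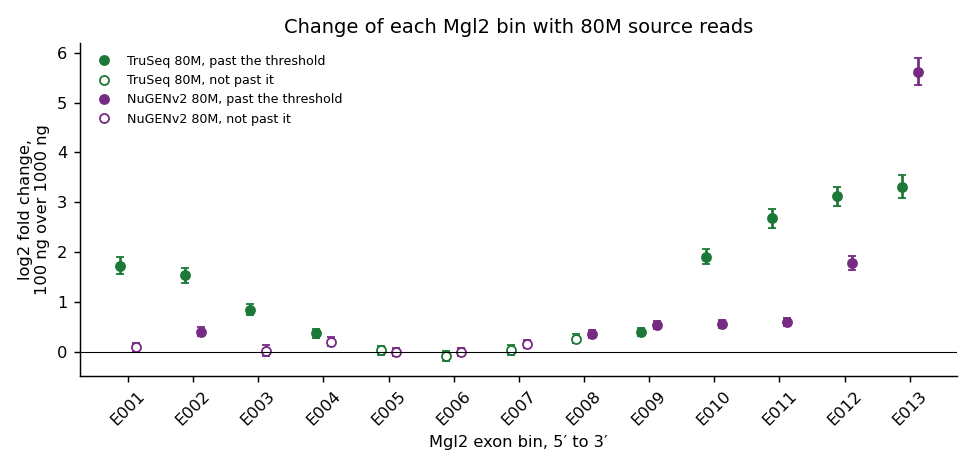
Log2 fold change (100 ng over 1000 ng) of each Mgl2 bin with 80M source reads, TruSeq in green and NuGENv2 in purple, with bars for the standard error, where filled points have a limma adjusted p under 0.05. TruSeq values are high at both ends and near 0 from E005 to E007, while NuGENv2 values are at most 0.40 up to E008 and reach 5.62 in E013.

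Bin usage sets the change of each bin against the other bins of the same gene. In the limma test of usage 12 of 13 Mgl2 bins differed with 80M TruSeq reads, 5 upward and 7 downward, where 19.1% of all bins were called in either direction. The 5 were E001 and E010 to E013, and the strongest downward values, in E006, E007 and E005, were -1.44, -1.31 and -1.31 on the log2 scale. With 80M NuGENv2 reads 10 of 13 differed, where 10.8% of all bins were called, and only E012 at 1.07 and E013 at 5.23 were upward. At 20M and 40M 4 and 11 Mgl2 bins differed in usage with TruSeq reads (the first in the sample that stood apart), against 18.1% and 13.9% of all bins, and 9 and 12 with NuGENv2 reads, against 3.90% and 5.53%. With size factors from total reads most of these calls ended, with 0 and 5 bins left at 20M and 40M TruSeq reads and 1, 1 and 2 at 20M, 40M and 80M NuGENv2 reads, and on the values as deposited 0, 2 and 6 were left at 20M, 40M and 80M TruSeq reads and 1 at each NuGENv2 depth. E010 and E011 had usage values of 0.72 and 1.56 with TruSeq reads, and -0.26 and -0.21 with NuGENv2 reads, where neither passed the test.

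Because the added reads were the same in every replicate, the gain from 40M to 80M source reads gives the coverage of the added Mgl2 reads themselves, free of the background. The gain compares 1 TruSeq with 1 NuGENv2 library, and the 95% intervals, given for single bins, cover counting error only. They treat each gain as a single count, which holds only if the reads of a lower depth are part of those of the next. That was not tested, and for separate draws the intervals are too narrow. Mgl2 gained 23585 reads from TruSeq and 6477 from NuGENv2, a ratio of 3.64 with no interval, since reads that span bins count more than once in these sums, but single bins ranged from 17.9 in E001 to 0.365 in E007. TruSeq gave more reads in 7 bins, E001 to E004 and E010 to E012. It gave fewer in E006, E007, E008, E009 and E013, each with an interval below 1. In E005 the ratio was 1.10, with an interval of 0.854 to 1.41 that includes 1.

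The TruSeq gain formed a plateau at the 3′ end. It was 22.8, 23.6 and 23.2 reads per base in E010, E011 and E012, with 1.81 reads per base in E009 just 5′ of them and between 0.648 and 3.35 in E004 to E008. E010 to E012 held 85.8% of the TruSeq gain, 75.7% of the NuGENv2 gain and 35.3% of the Mgl2 reads of the 1000 ng background. E004 to E009 held 4.40% of the TruSeq gain and 18.4% of the NuGENv2 gain, where they held 52.2% of the Mgl2 reads of the 1000 ng background. E001 and E002 held 8.99% of the TruSeq gain, 4.01% of the NuGENv2 gain and 10.6% of the 1000 ng reads. Relative to the 1000 ng background, both sets of added reads had more of their Mgl2 reads at the 3′ end and fewer in the middle.

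**Figure D3:**
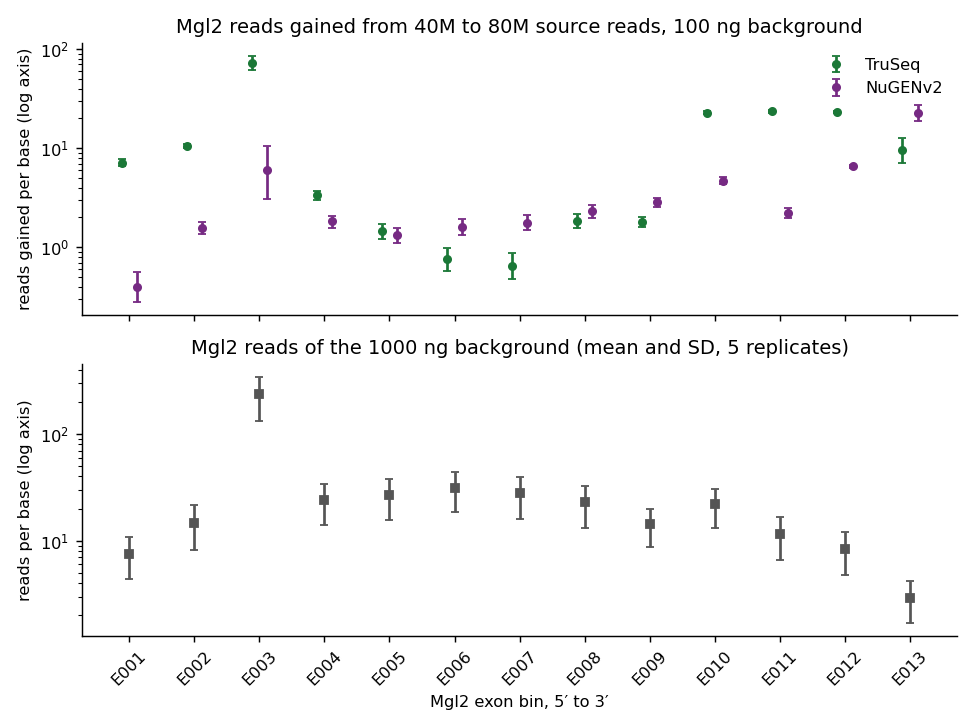
Reads gained per base from 40M to 80M source reads in the 100 ng background (upper panel, log axis, TruSeq green and NuGENv2 purple, bars for the 95% counting interval) and reads per base of the 1000 ng background (lower panel, log axis, mean and SD of 5 replicates), by Mgl2 bin. The TruSeq gain is level at 22.8 to 23.6 over E010 to E012 and 1.81 in E009, and the 3-base E003 is high in both panels since a read counts in each bin it overlaps. The same limit holds for the 6-base E013.

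The NuGENv2 gain was not level over the same bins. It was 4.71 reads per base in E010, 2.21 in E011 and 6.58 in E012. In E013 it was 22.8 over the recovered length of 5. A read counts in each bin it overlaps, so the value of this short bin cannot be set against those of longer bins. E013 gained 114 NuGENv2 reads against 48 TruSeq reads, a TruSeq to NuGENv2 ratio of 0.421 (95% interval 0.294 to 0.595). In E013, the 100 ng replicates with 80M reads held 104, 101, 122, 116 and 100 reads with TruSeq and 516, 513, 534, 528 and 512 with NuGENv2, against 17, 23, 8, 16 and 9 in the 1000 ng replicates. E013 thus holds few reads. The TruSeq minus NuGENv2 difference was -412 reads in each of the 5 replicates, since each kit gave 1 set of added reads. It is a single difference between the kits and not 5 observations.

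NuGENv2 reads also changed their distribution between depths. The Mgl2 gain from 40M to 80M was 1.91 times the gain from 20M to 40M as a sum over bins. For single bins the factor ran from 0.600 in E013 (95% interval 0.471 to 0.761), where the second step added fewer reads than the first, to 9.50 in E006 (5.23 to 18.9), which had gained 12 reads in the first step and 114 in the second. In E012, which holds most of the reads, it was 1.75 (1.66 to 1.84). Successive depths of NuGENv2 reads did not differ by 1 common factor along Mgl2.

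The 100 ng sample with 20M TruSeq reads differed in composition as well as depth. It held 156403 Mgl2 reads more than the 100 ng sample with 20M NuGENv2 reads, against 17625 more at 40M and 34733 more at 80M. Of those extra reads E012 held 24.1% at 20M, 59.9% at 40M and 60.2% at 80M, and E004 held 9.38%, 0.959% and 0.973%. E013 was the bin with fewer TruSeq than NuGENv2 reads at all 3 depths, with differences of -79, -346 and -412 reads.

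The 2 bins that are exonic or intronic by transcript, E003 and E011, were each compared with 1 neighbour, E004 and E010, within each replicate, which needs no scaling. These ratios were chosen after the values had been seen, and 18 of them were tested with a two-sided exact permutation test and adjusted together. All 100 ng replicates of a table carry the same added reads, so a shift in ratio from those reads is a single observation. The p-values of these ratios cover only the spread between background replicates and do not test the added reads. With 80M TruSeq reads E003 had 25.7, 26.5, 22.9, 23.1 and 26.9 reads per 100 reads of E004 in the 100 ng replicates, against 17.7, 18.5, 17.3, 17.7 and 18.4 in the 1000 ng replicates. The groups did not overlap (exact p = 0.00794, adjusted p = 0.0130). With 80M NuGENv2 reads E003 had 15.2, 14.4, 17.5, 16.4 and 15.5 reads per 100 E004 reads in the 100 ng replicates, lower on average than the same 1000 ng values and overlapping them in 1 replicate (exact p = 0.0159, adjusted p = 0.0220). The added reads themselves had 39.6 E003 reads per 100 E004 reads with TruSeq (146 and 369 reads) and 6.00 with NuGENv2 (12 and 200 reads). A read that spans both adjoining bins counts in each, so these ratios have no interval. The direction with TruSeq reads depends on the neighbour chosen. At 80M E003 had a log2 fold change of 0.84, above 0.36 in E004 but below 1.53 in E002. E004 has 96.4% of its bases identical in Clec10a, the gene of a related lectin. The ratio to E004 thus does not measure the choice of acceptor.

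E003 per 100 E004 reads averaged 18.7, 22.5 and 25.01 in the 100 ng background with 20M, 40M and 80M TruSeq reads, and 17.7, 16.8 and 15.8 with 20M, 40M and 80M NuGENv2 reads, against 17.9 ± 0.53 in the 1000 ng background (SD, n = 5). The 20M and 40M NuGENv2 values did not pass (exact p = 0.548 and 0.0556), although the value at 40M did without 100 ng replicate 3 or 1000 ng replicate 3 (exact p = 0.0159 and 0.0476). The smaller TruSeq value at 20M, in the sample that stood apart, was still above all 1000 ng replicates. The counts behind E003 were 560, 506, 935, 774 and 536 reads in the 100 ng replicates with 80M TruSeq reads and 433, 843, 342, 433 and 331 in the 1000 ng replicates.

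E011, the intron of Mgl2-001, had more reads than its 5′ neighbour E010 in the 100 ng background with 40M and 80M TruSeq reads. It had fewer in the other 4 tables. These counts ignore length, and E011 has 144 bases where E010 has 107. Per length E011 was below E010 in the 100 ng background. It averaged 1541 against 1876 FPKM equivalents with 40M TruSeq reads and 2719 against 3018.5 with 80M. The change of E011 between backgrounds was above that of E010 but below that of its 3′ neighbour E012. With 80M TruSeq reads E012 had a log2 fold change of 3.11 and E011 of 2.67. E010 has 93.5% of its bases identical in Clec10a, the gene of a related lectin. The ratio to E010 thus does not measure how often the intron is kept. With 80M TruSeq reads it had 124, 125, 111, 116 and 126 reads per 100 E010 reads in the 100 ng replicates, against 69.8, 74.3, 67.0, 70.3 and 71.3 in the 1000 ng replicates. The groups did not overlap (exact p = 0.00794, adjusted p = 0.0130). They did not overlap at 40M either, where the 100 ng mean was 110 ± 7.62 (SD, n = 5) with the same exact p. The 100 ng replicates of each table share the same added E010 and E011 reads, so the exact p-values do not test those reads. With 80M NuGENv2 reads E011 had 73.1, 72.9, 70.9, 73.0 and 72.9 reads per 100 E010 reads in the 100 ng replicates, within the range of the 1000 ng replicates (exact p = 0.151, and 0.0238 without 1000 ng replicate 2). The added reads had 140 E011 reads per 100 E010 reads with TruSeq (3375 and 2419 reads) and 63.3 with NuGENv2 from 40M to 80M (316 and 499 reads), but 100.0 from 20M to 40M (149 reads in each). At 40M NuGENv2 reads the mean was 75.1 ± 1.79 in 100 ng against 70.6 ± 2.63 in 1000 ng (SD, n = 5 each; exact p = 0.0159, adjusted p = 0.0220).

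**Figure D4:**
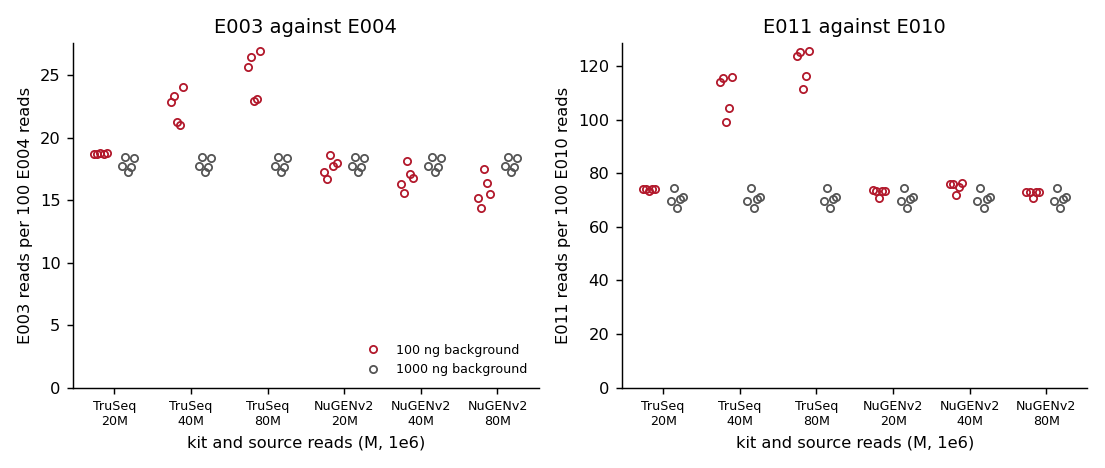
E003 reads per 100 E004 reads (left) and E011 reads per 100 E010 reads (right, both axes linear from 0) in each replicate of the 100 ng (red) and 1000 ng (grey) backgrounds, by kit and source reads. With 80M TruSeq reads both ratios are higher in all 100 ng replicates, while with NuGENv2 reads the E011 ratio stays between 70.8 and 76.2.

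E012 was set against E004, a bin with a low gain of 3.35 TruSeq reads per base (10.5 in E002) and 96.4% of its bases identical in Clec10a, the gene of a related lectin, so the ratio depends on E004 as much as on E012. With 80M reads it had on average 1357 ± 351 reads per 100 E004 reads with TruSeq and 595 ± 130 with NuGENv2 in the 100 ng background, against 195 ± 2.91 in the 1000 ng background (SD, n = 5 each; exact p = 0.00794 for each kit). The ratio was above all 1000 ng replicates at 20M and 40M of both kits too, including the 20M TruSeq sample that stood apart. Its spread was wide in the 100 ng replicates with 80M TruSeq reads, from 912 to 1694. Here too the 100 ng replicates of a table share the same added reads, so the exact p does not test those reads.

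Mgl2 has a close neighbour, Clec10a, the gene of the related lectin MGL1, on chromosome 11 from 69980125 to 69984336 (NCBIM37), and Clec10a is not among the gene models tested. Each placed bin of more than 10 bases was aligned to the genomic sequence of Clec10a. E004 to E010 had 90.8% to 100% of their bases identical, and all 152 bases of E009 were found there unbroken. E002, E011 and E012 had 44.1%, 9.72% and 18.2% of their bases identical, with no unbroken match over 15 bases. The 6 bins with the low TruSeq gain, E004 to E009, are all in the first group, but E010, at 93.5% identical, gained 22.8 TruSeq reads per base like its neighbours E011 and E012. In the 1000 ng background the 7 near-identical bins held 14.3 to 31.0 reads per base on average and the 3 others 8.34 to 14.8. These ranges overlap, with E009 at 14.3 below E002 at 14.8. A read counts in each bin it overlaps, which raises reads per base in short bins. Apart from E009 the near-identical bins have 72 to 111 bases and the others 144 to 622. An order by likeness therefore cannot be told apart from bin length here. No source used here says how reads that match both genes were counted, so values of E004 to E010 are uncertain between Mgl2 and Clec10a, and the part of this likeness in the uneven gain was not tested.

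**Figure D5:**
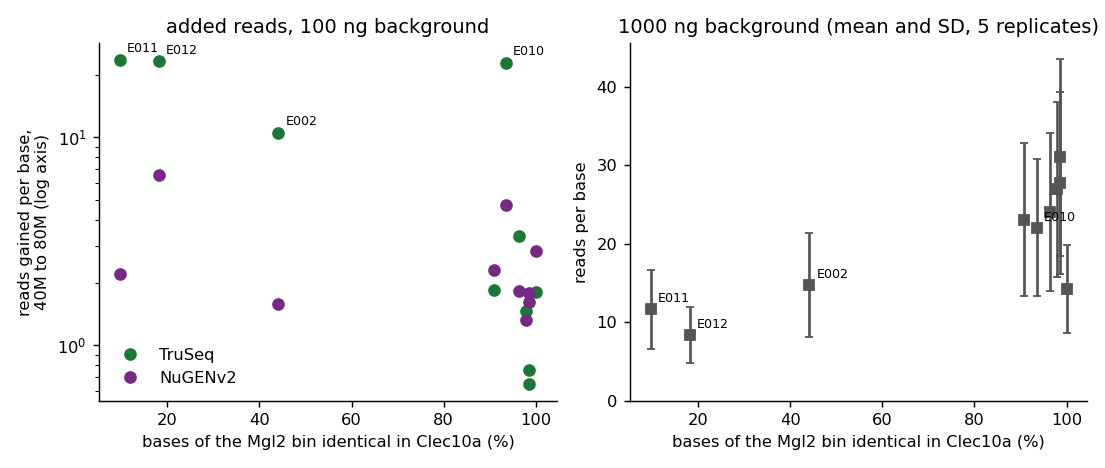
Percent of the bases of each Mgl2 bin identical in Clec10a (x axes) against reads gained per base from 40M to 80M source reads in the 100 ng background (left, log axis, TruSeq green and NuGENv2 purple) and mean reads per base with SD over 5 replicates of the 1000 ng background (right, linear axis). Among the bins over 90% identical E010 has a TruSeq gain of 22.8 reads per base and the others have 0.648 to 3.35.

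Other immune surface genes could be compared only where the tables hold them. Of 35 C-type lectins and lectin receptors other than Mgl2 none was measured, and of 22 myeloid surface receptors and adaptors 3 were, Sirpa, Il18rap and Myadm. Of these, 2 rose and 1 fell with 80M TruSeq reads. Each background received added reads of its own listed transcripts, so such directions can be set by the mixing and are not results about the cells. Sirpa, an inhibitory receptor that binds CD47, had a log2 fold change of 1.78 (SE 0.14), Il18rap, a subunit of the interleukin 18 receptor, 0.43 (SE 0.057), and Myadm, a myeloid membrane protein, -1.92 (SE 0.13). With 80M NuGENv2 reads the values were 0.61, 0.19 and -1.73, and each passed in the same direction (limma adjusted p at most 0.0225). Myadm averaged 69.1 and 69.8 FPKM equivalents in 100 ng with 40M and 80M TruSeq reads. In 1000 ng it averaged 168 and 268, each table with its own scaling. Over all 58 gene models 25.9% were called higher and 15.5% lower with 80M TruSeq reads, and 19.0% higher and 5.17% lower with 80M NuGENv2 reads.

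The gene models most like Mgl2 were ranked by Pearson's r of mean levels over the 12 samples, which share backgrounds, added reads and the scaling of each table. They were the model of uc012hbj.1, for which the tables give no gene symbol, at 0.998, Sirpa at 0.996 and Fbf1, which encodes a keratin-binding protein also found in cilia, at 0.992. All 3 have a transcript on the list of kit reads for the 100 ng background, as Mgl2 has. Their log2 fold changes with 80M TruSeq reads were 1.57 for the model of uc012hbj.1, 1.78 for Sirpa and 1.39 for Fbf1, and with 80M NuGENv2 reads 0.75, 0.61 and 0.42. Their levels were far lower, at 13.02, 255 and 9.10 FPKM equivalents in the 100 ng background with 80M TruSeq reads, where Mgl2 averaged 1919. Without the 100 ng sample with 20M TruSeq reads, r over 11 samples was 0.998, 0.996 and 0.993.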

How the data were processed

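The authors deposited 1 table per kit and depth, each with 5 columns of either background and named as FPKM. The deposited values were a coverage signal: in 9 of 10 columns whole reads divided by a bin length, found as the smallest length that made them whole within 0.001 reads, and in the fifth 100 ng column divided further by a library total in 1e6 reads (16.0 to 16.2, but 201 with 20M TruSeq reads), found by making its values whole. STAR, Cuffdiff and mm9 are named in the submitters' processing notes without versions, and no source used here states the method of counting reads in bins. Each table had 1744 rows, of which 818 were repeats and 1 bin was not finite, and 2 bins were 0 throughout.

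Size factors were medians of ratios over bins, and limma 3.58.1 in R 4.3.3 tested log2(FPKM equivalent + 1) for 5 against 5 columns in each table, over 922 bins (a mean of at least 1 unless a listed transcript) and 58 sums, with diffSplice for usage and a threshold of 0.05. The plan had assumed FPKM as deposited; the scaling was changed because of the unit found. Gains are exact differences of reads between tables, with 95% exact intervals for single bins, of a Poisson count or of the ratio of the counts of both kits or steps. The scripts were tested on simulated data. Exon parts came from GENCODE annotation of NCBIM37, and alignments to Clec10a from Biopython 1.88. Members, gene lists and tests were chosen with earlier results of these data known. The bins described in full are the 3 with the largest and the 3 with the smallest change with 80M TruSeq reads and the bin in 1 annotated transcript. Alternatives were total-read scaling, the deposited values without the fifth 100 ng column, a pseudocount of 0.1, no filter, a replicate block, each replicate left out and, chosen after seeing the data, 1 base more per bin.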

Additional observations from a re-analysis of the deposited data

Results flagged for a closer look

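In 5 of 85 groups of 5 replicates tested for a replicate far from the rest, the highest or lowest value lay apart by more than Dixon's 95% critical value of 0.71, where chance flags about 1 in 20 groups. At 80M NuGENv2 reads, E002 of 100 ng replicate 4 was low at 626 FPKM equivalents, with 667 to 678 in the others. In the same sample E007 of replicate 3 was high at 1147 FPKM equivalents, with 1030 to 1052 in the others. E011 reads per 100 E010 reads were lowest in 100 ng replicate 3, at 70.8 with 20M NuGENv2 reads, 70.9 with 80M NuGENv2 reads and 73.5 with 20M TruSeq reads. These 3 values share the same background reads and are not independent.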

How the results depend on the processing

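No gene-level call or direction changed with a pseudocount of 0.1, without the filter or with 1 base more per bin, and the first of these removed 1 called bin each with 20M TruSeq and 40M NuGENv2 reads. With total-read scaling the Mgl2 log2 fold change kept its call in the 3 TruSeq tables, but was 1.43 in place of 0.37 at 20M, and 2.80 there on the deposited values. With NuGENv2 reads it was 0.22, 0.43 and 0.75 at 20M, 40M and 80M and did not pass, bins called were 1 at 20M and 2 at 80M, and bins of changed usage 1, 1 and 2. Usage calls with TruSeq reads were 0 at 20M and 5 at 40M, and E005 and E007 turned to -0.096 and -0.097 at 80M. With the deposited values without the fifth 100 ng column the Mgl2 change was 0.85 with 40M TruSeq reads and -0.039, 0.15 and 0.45 with NuGENv2 reads, none past the threshold. Bins called were then 3 with 40M TruSeq reads and 1, 1 and 1 with NuGENv2 reads, and usage calls 0, 2 and 6 with TruSeq reads and 1, 1 and 1 with NuGENv2 reads. Bins that turned were E005 at -0.16 and E007 at -0.17 with 80M TruSeq reads and E001 at -0.15, E003 at -0.24, E004 at -0.059 and E007 at -0.099 with 80M NuGENv2 reads. The cause was not tested. These scalings moved the median log2 fold change of all gene models by 0.75 and 0.69 with 20M TruSeq reads, by -0.13 at 40M (deposited values) and by -0.11 each at 80M, so bin directions are relative to that shift.

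Same-numbered replicates of the backgrounds correlated between -0.43 and 0.49, so the numbers do not pair them. With a replicate block the change of 0.25 with 20M NuGENv2 reads did not pass (limma adjusted p = 0.186) and 1 bin was called there, and E004 and E009 with 80M TruSeq reads and E002 and E008 with 80M NuGENv2 reads did not pass either. Leaving out 1 replicate gave Mgl2 changes of 0.35 to 0.39, 1.13 to 1.24 and 1.72 to 1.87 with TruSeq reads and 0.22 to 0.28, 0.42 to 0.49 and 0.74 to 0.81 with NuGENv2 reads. E005 and E007 then ranged from -0.00047 to 0.073 and -0.013 to 0.075 with 80M TruSeq reads, and E003, E005 and E006 from -0.044 to 0.066, -0.040 to 0.027 and -0.039 to 0.030 with 80M NuGENv2 reads. Within-replicate ratios near the threshold changed their call in 8 of these fits. The median over bins of the TruSeq to NuGENv2 gain ratio was 1.85, against 3.64 for the sum. In the 1000 ng background no gain ratio exists, since 0 reads were gained. Bins with few reads, such as E013, are measured least precisely.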
